A study of Mus musculus with 8 samples.

Results

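Amino acid transporters are the membrane proteins that carry amino acids into and out of cells and organelles. Those described here were chosen by gene name: every single gene symbol of the array's probe annotation in the solute carrier families Slc1, Slc3, Slc7, Slc36, Slc38 and Slc43, which gave 42 of the 18193 genes named on the array. Of these, 40 symbols are those of transporters or their partner chains. The other 2, Slc36a1os and Slc7a6os, match by spelling but name separate genes. They are called opposite strand genes here, and their spans lie beside those of Slc36a1 and Slc7a6 without overlap. The samples were germinal centre B cells, sorted as B220+CD38-CD95+ from lymph nodes of C57BL/6 mice. All mice had received NP-KLH, a protein antigen carrying a small hapten, in alum by subcutaneous injection, and nodes were taken 12 days later. Light zone cells and dark zone cells were separated by their surface CXCR4 and CD83, and each sample's RNA went onto 1 Affymetrix expression array, giving 4 light zone and 4 dark zone arrays. The labels call the samples biological replicates and give neither the age of the mice nor how many were pooled.

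A cell takes up amino acids through transporters that overlap in what they carry but differ in what drives them. Some draw on the sodium gradient and so accumulate glutamine, alanine or serine. Others are exchangers, which release one amino acid to import another, and the best known of these is the CD98 complex, a heavy chain (Slc3a2) bonded to 1 of several light chains of the Slc7 family. Others let amino acids flow down their gradient, or move them out of the lysosome. In activated lymphocytes the CD98 complex with Slc7a5 is a main route for leucine and other large neutral amino acids, whose supply is sensed by the growth kinase mTORC1. Germinal centre B cells divide and mutate their antibody genes mainly in the dark zone, and compete for antigen and T cell help in the light zone.

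In the labels, CXCR4 is given as high and CD83 as low for the light zone gate, and the reverse for the dark zone gate, opposite to the usual definition, so the groups were taken from the sample titles. The mRNA went with the titles: Cd83 was higher in the light zone by 2.32 on the log2 scale, and Cxcr4 was at -0.96, lower in the light zone. Every difference below is light zone minus dark zone in log2 of the deposited array intensity, so a positive value means higher in the light zone. Median intensities per array were 27.3 to 28.1, and arrays of the same zone correlated at 0.995 to 0.997 over the genes tested. All 9 genes on the array of a list of B cell and germinal centre markers were above the brightness filter. Below it were 5 of 10 T cell, 12 of 16 myeloid and 7 of 12 stromal markers. Among these were Cd3d, Cd8a, C1qa, S100a8 and Col1a1. The other markers of these lists, among them Cd3e, Cd4, Csf1r, Cd68, Mfge8 and Clu, were above it. The number of arrays limits the precision.

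In these cells 25 of the 42 genes were bright enough to test, that is, their mean over all 8 arrays reached the median over all probe sets, which is an intensity of 27.8. A gene that is bright in 1 zone only could enter by that zone. Of the 25, 7 were higher in light zone arrays and 4 in dark zone arrays at an adjusted p under 0.05 (limma, two-sided, Benjamini-Hochberg over all genes tested), and 14 did not pass. Over all 10547 genes tested, 43.9% passed, 24.8% towards the light zone and 19.1% towards the dark zone. The transporters' share, 44%, lies at that background and is no result about them as a group. Their median difference was 0.07 against 0.01 for all genes tested, and the median size of the difference was 0.17 in both. No transporter differed by 2-fold or more (all genes: 3.13%), and 4 passed with at least 1.5-fold (all genes: 10.1%). Slc7a5, Slc3a2 and Slc38a2 did so towards the light zone (all genes: 6.19%) and Slc36a4 towards the dark zone (all genes: 3.86%). The zones' arrays did not overlap for 12 of the 25, where 41.3% of all genes tested did not overlap.

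**Figure D1:**
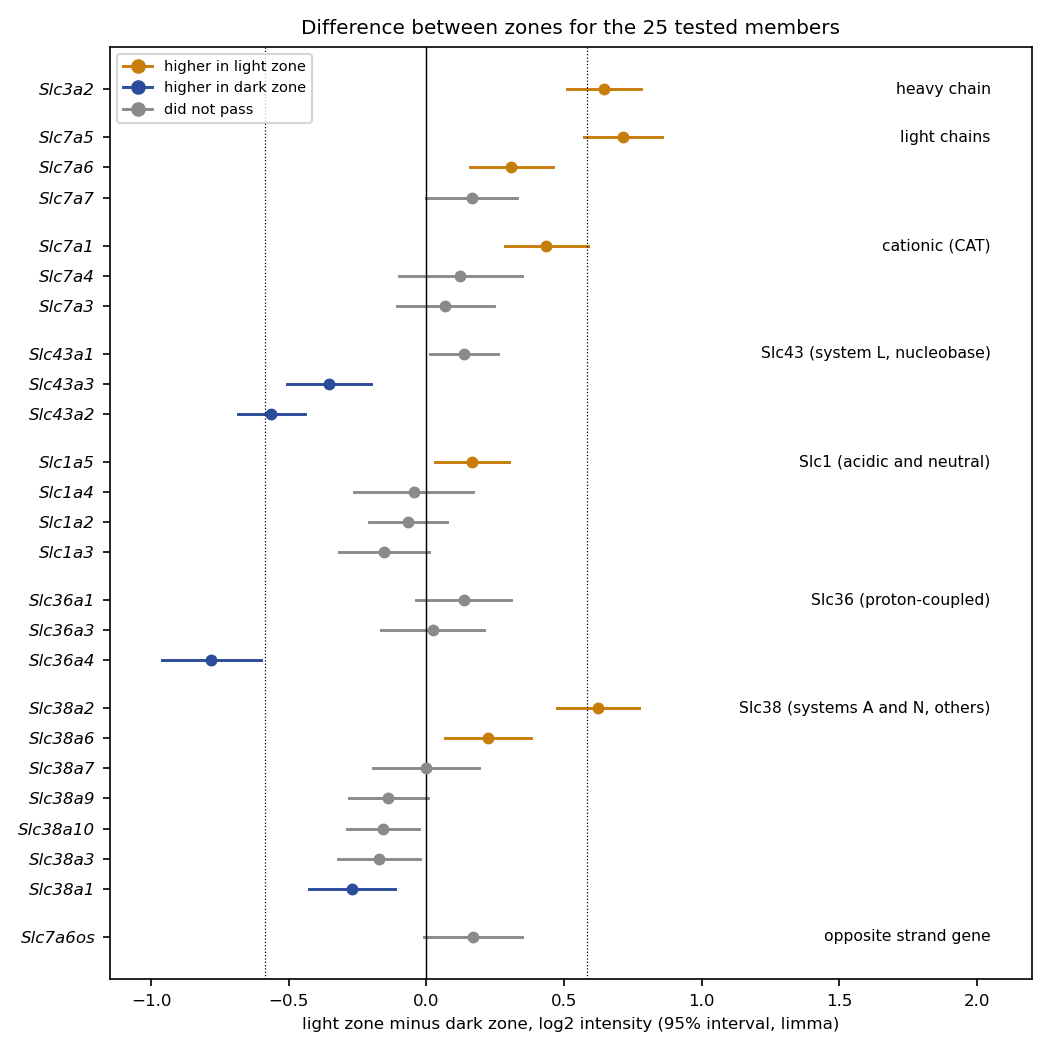
Light zone minus dark zone difference in log2 intensity (x axis) for each of the 25 tested genes (rows, grouped by role), as limma estimate with 95% interval. Orange genes were higher in the light zone, blue ones in the dark zone and grey ones did not pass, and dotted lines mark 1.5-fold. The heavy chain Slc3a2 and its light chain Slc7a5 lie furthest right, and Slc36a4 and Slc43a2 furthest left.

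The heavy chain of the CD98 complex and its leucine-carrying light chain were higher together in the light zone. Slc3a2 encodes CD98, the heavy chain that brings light chains to the cell surface. Its intensities were 563, 523, 546 and 517 in the light zone arrays, against 350.2, 320.1, 364 and 339.7 in the dark zone arrays. Every light zone array lay above every dark zone array. The difference was 0.65 (SE 0.06), 1.56-fold higher in the light zone (limma adjusted p = 5.3e-06). Slc7a5 encodes LAT1, the light chain that imports leucine, tryptophan and other large neutral amino acids in exchange for amino acids of the cell. It had intensities of 498, 545, 528 and 553 in the light zone arrays, against 306, 312, 352 and 327 in the dark zone arrays. Again the zones did not overlap, and the difference was 0.71 (SE 0.07), 1.64-fold (limma adjusted p = 3.5e-06). Within an array, the log2 ratio of Slc3a2 to Slc7a5 was 0.02 ± 0.12 in light zone arrays and 0.08 ± 0.07 in dark zone arrays (SD, n = 4 each), given as a description: the zones overlapped, and the shift of -0.07 was smaller than the spread among light zone arrays. In RNA of whole sorted samples, fewer cells with a transcript and less of it per cell cannot be told apart.

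Of the other light chains, Slc7a6 was also higher in the light zone. It encodes an exchanger of cationic for neutral amino acids that also pairs with CD98. Its brightest probe set gave 326, 324, 369 and 371 in the light zone arrays, against 264, 279, 282 and 296 in the dark zone arrays. The zones did not overlap, with a difference of 0.31 (SE 0.07, limma adjusted p = 0.0031). A second probe set of Slc7a6 that was nearly as bright gave a larger difference, 0.61 (SE 0.07), so the size of the difference depends on the probe set while the direction does not. Slc7a7, a related exchanger, averaged 55.9 ± 3.58 in light zone arrays and 49.9 ± 4.58 in dark zone arrays (SD, n = 4 each). Its difference of 0.17 (SE 0.08) did not pass (limma adjusted p = 0.098), although it did without dark zone replicate 4 (0.23, limma adjusted p = 0.023), and the mean of its probe sets was 0.039. The remaining 7 light chain genes were too dim to test. They include Slc7a11, the cystine importer xCT, whose light zone arrays lay at 12.2 to 12.6 and whose dark zone arrays at 11.2 to 13.0. They also include Slc7a8, the light chain LAT2, at 11.1 to 12.1 in light zone arrays and 11.5 to 13.0 in dark zone arrays. Slc7a9, Slc7a10, Slc7a12, Slc7a13 and Slc7a15 were below the filter as well, as was Slc3a1, the heavy chain that partners Slc7a9 in kidney and gut.

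**Figure D2:**
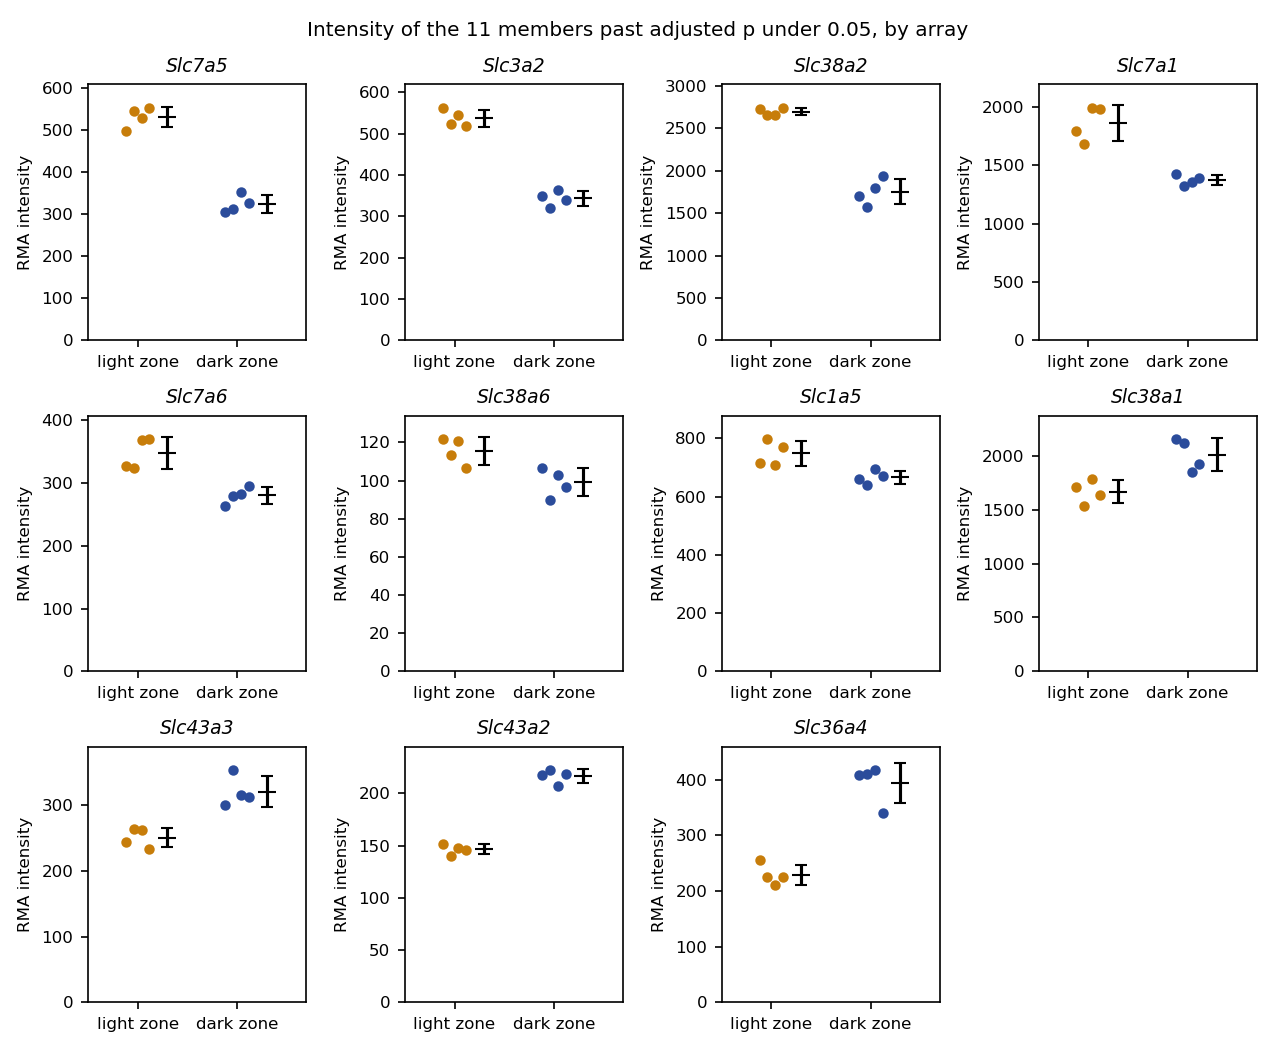
Deposited RMA intensity on a linear scale from 0 (y axis) for the 11 genes past the threshold, 1 point per array, with light zone arrays left (orange) and dark zone arrays right (blue). Bars show mean ± SD of the 4 arrays of a zone. The zones are apart in every panel except that of Slc38a6, where 1 dark zone array reaches into the light zone range.

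The main importer of arginine and lysine was higher in the light zone as well. Slc7a1 encodes CAT1, which carries cationic amino acids alone, without a heavy chain. Its intensities were 1794, 1679, 1993 and 1985 in the light zone arrays, against 1426, 1325, 1357 and 1389 in the dark zone arrays. All light zone arrays were above all dark zone arrays, with a difference of 0.44 (SE 0.07, limma adjusted p = 3.0e-04), and a dimmer probe set gave 0.43. The mean of all its probe sets, 1 of them below the filter, gave 0.29 and passed. Its relatives did not pass: Slc7a3 was at 0.07 (SE 0.08) and Slc7a4, for which no transport has been shown, at 0.12 (SE 0.10). Slc7a3 lay just inside the brightness filter, with a mean intensity of 27.9, and Slc7a4 passed without dark zone replicate 1 (0.22, limma adjusted p = 0.045). Slc7a2, the cationic transporter of liver and macrophages, and Slc7a14 were too dim to test.

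Of the 3 genes of the Slc43 family, 2 were lower in the light zone, the reverse of Slc7a5. Its LAT3 and LAT4 proteins carry large neutral amino acids down their gradient without exchange. Slc43a2 encodes LAT4, a carrier of leucine, phenylalanine and methionine. It had intensities of 151, 140.1, 148 and 146 in the light zone arrays, against 217, 222, 207 and 219 in the dark zone arrays. The dark zone arrays were all higher, and the difference was -0.56 (SE 0.06, limma adjusted p = 7.7e-06). A second probe set of Slc43a2 above the filter gave -0.51, and another below it -0.53, so all of its probe sets were lower in the light zone. As a description of the opposed moves, the log2 ratio of Slc7a5 to Slc43a2 within an array averaged 1.86 ± 0.11 in light zone arrays and 0.58 ± 0.13 in dark zone arrays (SD, n = 4 each), which shows unequal change between the genes and not their relative abundance. Slc43a3, known as a carrier of nucleobases and not of amino acids, was also lower in the light zone, at 244, 263, 261 and 233 in the light zone arrays, against 300.3, 353, 316 and 312 in the dark zone arrays. The groups did not overlap, with a difference of -0.35 (SE 0.07, limma adjusted p = 0.0014). Slc43a1, which encodes LAT3, averaged 56.9 ± 1.25 in light zone arrays and 51.8 ± 2.12 in dark zone arrays (SD, n = 4 each). Its light zone arrays all lay above its dark zone arrays, but the difference of 0.14 (SE 0.06) did not pass (limma adjusted p = 0.071). It passed when arrays were centred on their medians (0.16, limma adjusted p = 0.047), or without dark zone replicate 3. Its 1 probe set leaves nothing to average. When the probe sets of other genes were averaged, its value was unchanged and its adjusted p fell below the threshold (limma, 0.037). That setting changed both the values and the number of the other genes in the fit, and which of these lowered it was not tested.

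Of the 3 sodium-driven carriers of system A, Slc38a1 and Slc38a2 passed the test in opposite directions, and Slc38a4 was too dim to test. Slc38a2 encodes SNAT2, which accumulates glutamine, alanine and other small neutral amino acids and is known to be induced when amino acids run short. Its intensities were 2725, 2662, 2655 and 2741 in the light zone arrays, against 1707, 1577, 1796 and 1932 in the dark zone arrays. Each light zone array exceeded each dark zone array, with a difference of 0.62 (SE 0.07), 1.54-fold (limma adjusted p = 1.6e-05). A second probe set gave 0.72, whereas another, much dimmer at mean intensities of 43.4 in light zone arrays and 43.1 in dark zone arrays, gave 0.0095 and did not pass. Slc38a1 encodes SNAT1, a carrier of similar substrates. It had intensities of 1705, 1534, 1783 and 1639 in the light zone arrays, against 2156, 2117, 1849.8 and 1918 in the dark zone arrays. Here the dark zone arrays were higher without overlap, with a difference of -0.27 (SE 0.07, limma adjusted p = 0.0094), and its second probe set gave -0.25. The log2 ratio of Slc38a2 to Slc38a1 within an array averaged 0.70 ± 0.10 in light zone arrays and -0.20 ± 0.21 in dark zone arrays (SD, n = 4 each), with no overlap.

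Among the other Slc38 genes, only Slc38a6 passed. Slc38a6 averaged 116 ± 7.24 in light zone arrays and 99.1 ± 7.36 in dark zone arrays (SD, n = 4 each). Some arrays of the zones overlapped, and the difference of 0.22 (SE 0.07, limma adjusted p = 0.025) did not pass without replicate 1 or 3 of the light zone or replicate 2 or 4 of the dark zone (limma adjusted p = 0.055 to 0.076). Its second probe set above the filter gave 0.09 and did not pass. Slc38a3, a carrier of system N that moves glutamine in both directions, was at -0.17 (SE 0.07), and passed without dark zone replicate 1 (-0.22, limma adjusted p = 0.023) and with array weights. It was measured near the floor, at a mean intensity of 30.0. Slc38a7, a lysosomal carrier of glutamine and asparagine, was at -0.0019 (SE 0.09), with a 95% interval of -0.19 to 0.19. Slc38a10 was at -0.16 (SE 0.06) with no overlap, just short of the threshold (limma adjusted p = 0.050), and its 6 dimmer probe sets lay between -0.16 and 0.06 and none passed, with a mean over all probe sets of -0.059. It passed without dark zone replicate 3 (-0.18, limma adjusted p = 0.042), with a stricter filter on dim genes and with a trended, robust variance.

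Slc38a9, the lysosomal arginine sensor that signals to mTORC1, gave no single direction. Its brightest probe set was at -0.14 (SE 0.07) and did not pass (limma adjusted p = 0.11). Of its 6 other probe sets above the filter, 2 were higher in the light zone (0.25 and 0.38, limma adjusted p = 0.020 and 0.0032), 1 was lower (-0.35, limma adjusted p = 0.027), and 3 did not pass. These were adjusted over all 18851 named probe sets above the filter, where the brightest probe set did not pass either (limma adjusted p = 0.12). Probe sets of a gene can bind different stretches or forms of its transcript, and which of these they bind was not analysed here. Slc38a5, like Slc38a4, was below the filter.

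**Figure D3:**
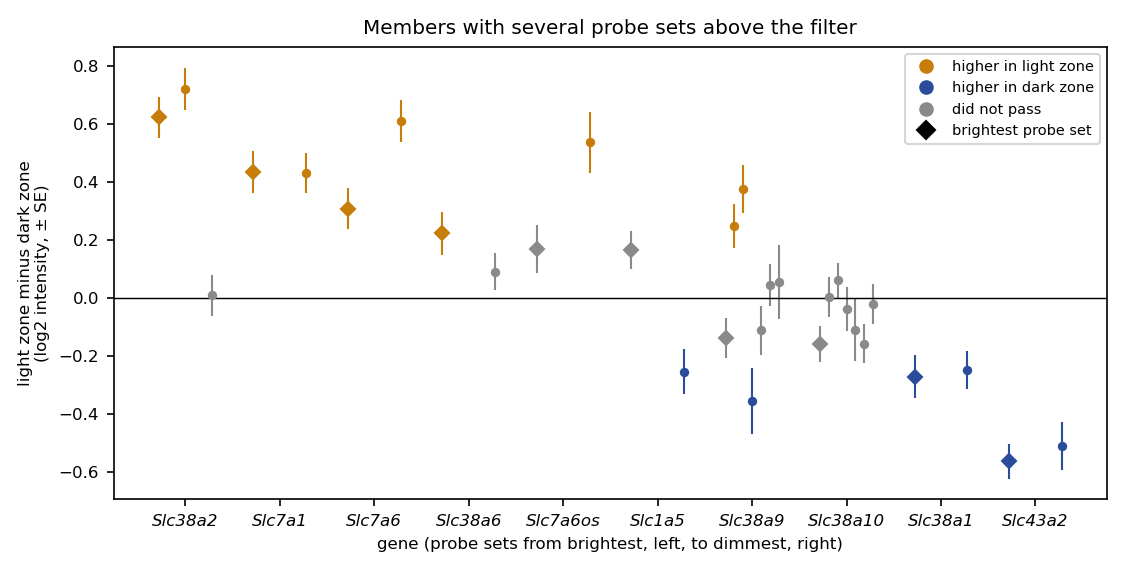
Light zone minus dark zone difference in log2 intensity ± SE (y axis) for the 10 genes with several probe sets above the filter (x axis), diamonds marking the brightest one. Colours show calls at an adjusted p under 0.05 over all 18851 named probe sets above the filter, a wider family than the genes, so that the brightest probe set of Slc1a5 does not pass here. The probe sets of Slc7a1, Slc43a2 and Slc38a1 lie close together, and those of Slc1a5 and Slc38a9 lie on both sides of 0.

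The gene with the largest difference towards the dark zone was Slc36a4, a carrier of proline and tryptophan in the family of proton-coupled transporters. Its intensities were 255, 225, 211 and 225 in the light zone arrays, against 408, 410.3, 418 and 339 in the dark zone arrays. No array overlapped, and the difference was -0.78 (SE 0.08), 1.72-fold higher in the dark zone (limma adjusted p = 1.2e-05). Dark zone replicate 4 lay below the other dark zone arrays, and without it the difference was -0.85. Slc36a1, the lysosomal and plasma membrane carrier of small amino acids, averaged 70.9 ± 4.38 in light zone arrays and 64.7 ± 6.12 in dark zone arrays (SD, n = 4 each). Its difference of 0.13 (SE 0.08) did not pass (95% interval -0.04 to 0.31). Slc36a3 was at 0.02 (SE 0.09), near the floor of the array, and Slc36a2 was too dim to test.

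The glutamine exchanger of the Slc1 family showed no settled direction. Slc1a5 encodes ASCT2, which imports glutamine in exchange for other neutral amino acids. Its brightest probe set had intensities of 714, 798, 709 and 769.8 in the light zone arrays, against 659.7, 640.0, 694 and 672 in the dark zone arrays. The zones did not overlap and the difference of 0.17 (SE 0.06) passed (limma adjusted p = 0.048), but only just. The call was lost without light zone replicate 2 or 4 or any 1 of the dark zone arrays (limma adjusted p = 0.050 to 0.13), and also with no filter on dim genes (0.074) or with the replicate number as a block (0.069). The second probe set of Slc1a5 went the other way, at -0.25 (SE 0.08, limma adjusted p = 0.020), again with no overlap, and the mean of both was -0.04. That p-value was adjusted over all 18851 named probe sets above the filter, where the brightest probe set did not pass (limma adjusted p = 0.059). Slc1a4, a related carrier of alanine, serine and cysteine, was at -0.05 (SE 0.10), with light zone replicate 1 at 45.3 and the other light zone arrays at 59.6 to 62.8. The glutamate carriers Slc1a2 (-0.07, SE 0.06) and Slc1a3 (-0.15, SE 0.07), known for their work in glia, were measured near the floor and did not pass. Slc1a1, Slc1a6 and Slc1a7 were too dim, Slc1a7 being the one just outside the filter at a mean intensity of 26.9.

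The genes below the filter numbered 17, with mean intensities of 9.45 to 26.9 over the 8 arrays. When they were fitted with no filter, their differences lay between -0.17 and 0.14 and none (0) passed in limma. At an unadjusted p under 0.05, 1 of them did (Slc7a12). Of the opposite strand genes, Slc36a1os was among these, and Slc7a6os, which encodes a protein of its own and is no transporter, was at 0.17 (SE 0.08) and did not pass (limma adjusted p = 0.11). It passed without dark zone replicate 1 (0.23, limma adjusted p = 0.026), its second probe set gave 0.54, and the mean of its probe sets passed at 0.35. It was left out of no count above. Without the opposite strand genes, 11 of 24 passed (45.8%).

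Promoters were set beside these values, since several of the genes are textbook targets of ATF4, the transcription factor of the amino acid shortage response, and of MYC. Sequences are from RefSeq (GRCm38.p6) and run from 250 bases before to 50 after the transcript start, printed 5′ to 3′. They are shown for the genes that differed by at least 1.5-fold and are in the table (Slc7a5 is not printed). Slc7a11 is printed as well, a comparison picked because its promoter holds a match. Capitals mark a match to TGATGCAA, the core of the known amino acid response element. On the minus strand, the spans of Slc3a2 and Slc7a11 reach to 8723369 and 50499087. Their printed windows therefore lie at starts inside the gene, and starts further out were not searched for these genes.
Slc3a2 (chr19:8713848-8714147, minus strand): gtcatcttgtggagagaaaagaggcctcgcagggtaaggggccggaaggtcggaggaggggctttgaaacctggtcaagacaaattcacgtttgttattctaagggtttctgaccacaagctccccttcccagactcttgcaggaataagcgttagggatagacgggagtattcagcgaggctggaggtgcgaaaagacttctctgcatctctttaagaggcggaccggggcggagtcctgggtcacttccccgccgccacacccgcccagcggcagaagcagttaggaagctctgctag
Slc38a2 (chr15:96699679-96699978, minus strand): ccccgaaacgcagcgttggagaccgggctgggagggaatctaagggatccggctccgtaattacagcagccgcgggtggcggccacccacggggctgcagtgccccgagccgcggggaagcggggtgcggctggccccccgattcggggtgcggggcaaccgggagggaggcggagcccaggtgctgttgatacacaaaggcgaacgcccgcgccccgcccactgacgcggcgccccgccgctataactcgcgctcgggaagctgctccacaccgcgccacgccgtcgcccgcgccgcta
Slc36a4 (chr9:15709488-15709787, plus strand): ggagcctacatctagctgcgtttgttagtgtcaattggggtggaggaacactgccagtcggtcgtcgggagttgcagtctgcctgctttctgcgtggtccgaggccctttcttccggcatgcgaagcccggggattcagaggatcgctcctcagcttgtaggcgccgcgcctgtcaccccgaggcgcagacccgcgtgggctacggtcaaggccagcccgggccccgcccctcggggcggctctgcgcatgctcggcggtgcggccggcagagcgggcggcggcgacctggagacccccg
Slc7a11 (chr3:50443564-50443863, minus strand): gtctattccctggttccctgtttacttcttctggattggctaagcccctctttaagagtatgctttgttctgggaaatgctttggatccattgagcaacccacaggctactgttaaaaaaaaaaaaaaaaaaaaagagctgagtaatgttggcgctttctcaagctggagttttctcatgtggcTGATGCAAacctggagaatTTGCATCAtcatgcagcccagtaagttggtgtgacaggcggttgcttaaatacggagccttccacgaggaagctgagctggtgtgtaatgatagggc
The search covered both strands for CACGTG, the E-box that MYC and other factors bind, for TGATGCAA, and for the looser TGATGNAA, which includes it. None of the promoters of Slc3a2, Slc38a2 and Slc36a4 held any of these letters. Of all 32851 promoters of the table, 7.15% held CACGTG, 0.895% TGATGCAA and 3.97% TGATGNAA. Slc7a11 held TGATGCAA once on each strand, and it was too dim to test in either zone. Its match was fixed by the way it was picked, so it is no contrast to the other printed promoters. Among promoters of all 42 genes, of which 31 genes were in the table with 42 promoters, 7 promoters held CACGTG and 4 held TGATGCAA, and those with TGATGCAA belonged to Slc1a4, Slc7a11 and Slc7a7. None of these matches was in a promoter of the 7 genes that passed in the promoter table (5 higher in light zone arrays and 2 in dark zone arrays). Known response elements of some of these genes lie outside such a window, so the absence of letters here says only that they are not in it.

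Other genes that handle amino acids also went both ways. Myc, which drives growth and amino acid uptake in lymphocytes, had intensities of 804, 868, 654 and 946 in the light zone arrays, against 148, 209, 184 and 226 in the dark zone arrays. The difference was 2.10 (SE 0.13, limma adjusted p = 1.8e-07). Atf4 averaged 1330.1 ± 136 in light zone arrays and 1363 ± 116 in dark zone arrays (SD, n = 4 each), a difference of -0.04 (SE 0.09) that did not pass (limma adjusted p = 0.76). In the list of the amino acid response, 13 of 19 tested genes passed, 7 higher in light zone arrays and 6 in dark zone arrays, with a median of 0.08. The mTORC1 inhibitor gene Ddit4 had the largest rise towards the light zone (1.82, SE 0.21), and its arrays were 273, 148, 335 and 214 in the light zone arrays, against 79.5, 56.0, 72.0 and 58.1 in the dark zone arrays. Eif2ak3 (-1.22, SE 0.07), which encodes the kinase PERK of the stressed endoplasmic reticulum, and Eif2ak4 (-0.50, SE 0.07), which encodes GCN2, the kinase that senses uncharged tRNA, were lower in the light zone. When probe sets were averaged, Eif2ak4 was at -0.03 and did not pass, and Cebpg was at -0.34 and passed. Cebpg (-0.54), Trib3 (-0.36), Ppp1r15b (-0.21) and Psat1 (-0.19) were lower in the light zone too. Trib3 was near the floor, at 25.6 to 31.4 in light zone arrays and 34.4 to 37.5 in dark zone arrays. The asparagine synthetase gene Asns (0.34, SE 0.08) was higher in the light zone. So were Ddit3 (0.36, with overlapping arrays), Herpud1 (0.35), Shmt2 (0.35), Ppp1r15a (0.32) and Phgdh (0.26), for which the alternatives are not given. The calls of Ppp1r15b and Psat1 were lost in most fits that left out 1 array: for Ppp1r15b all but those without replicate 1 of the light zone or replicate 1 of the dark zone, and for Psat1 those without replicate 1, 3 or 4 of the light zone or replicate 3 or 4 of the dark zone.

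Glutamine-using and branched chain genes divided as well. Of 22 tested, 6 were higher in light zone arrays and 8 in dark zone arrays, with a median of -0.01. The subunits of the branched chain dehydrogenase, which breaks down leucine, isoleucine and valine, moved apart: Bckdhb was at 0.80 (SE 0.08) and Bckdha at -0.83 (SE 0.11). Cad, whose product starts pyrimidine synthesis from glutamine, was higher in the light zone (0.72, SE 0.07), as were the proline synthesis gene Aldh18a1 (0.48), Bcat1 (0.32) and Ctps (0.23). Lower in the light zone were Glul (-0.43), Ppm1k (-0.42), Got2 (-0.38), Glud1 (-0.30), Oat (-0.28), Gmps (-0.23) and Ppat (-0.21), for which the alternatives are not given. With averaged probe sets Cad was at 0.44 and Aldh18a1 at 0.17, both still passing, and Bcat1 was at -0.05 and did not pass. In glutathione synthesis and cystine use, 1 of 12 tested genes was higher in light zone arrays and 4 in dark zone arrays, with a median of -0.15. Both subunits of the rate-limiting enzyme of glutathione synthesis were lower in the light zone, Gclc at -0.89 (SE 0.07) and Gclm at -0.32 (SE 0.06), whereas Chac2, whose product degrades glutathione, was higher (0.73, SE 0.09).

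In amino acid sensing by mTORC1, 19 of 25 tested genes did not pass, 4 were higher in light zone arrays and 2 in dark zone arrays, with a median of 0.04. Sesn1, of the sestrin family whose member Sesn2 senses leucine, was at 0.74 (SE 0.08), the Ragulator subunit gene Lamtor4 at 0.46 (SE 0.07) and Fnip1 at 0.34 (SE 0.06). Lamtor2 (-0.24) and Sec13 (-0.19) were lower in the light zone, and both calls were lost without light zone replicate 2 (limma adjusted p = 0.053 and 0.090), when 3 genes of the list passed. With averaged probe sets Lamtor2 was at -0.084 and did not pass. Sec13 was also lost in every other fit without 1 array except those without replicate 3 of the light zone or replicate 4 of the dark zone. Of 23 tested amino acid transporters outside the families above, 5 were higher in light zone arrays and 2 in dark zone arrays, with a median of 0.04. Slc15a3, a lysosomal carrier of histidine and small peptides, had intensities of 398, 383, 386 and 380.5 in the light zone arrays, against 139, 138, 142 and 110.0 in the dark zone arrays. The zones were far apart, with a difference of 1.55 (SE 0.08, limma adjusted p = 3.3e-08). Sfxn2, of the mitochondrial sideroflexin family, was at 0.66 (SE 0.07), or 0.29 with averaged probe sets, which also passed. The mitochondrial carriers Slc25a18 (-0.38, SE 0.13) and Slc25a12 (-0.23, SE 0.07) were lower in the light zone, and both calls were lost without replicate 4 of the light zone or replicate 1 of the dark zone. The call of Slc25a18 was also lost without replicate 3 of the light zone or replicate 2 of the dark zone, and that of Slc25a12 without replicate 2 of the light zone or replicate 3 of the dark zone. The share that passed was 68.4% in the amino acid response, 63.6% in glutamine and branched chain use, 41.7% in glutathione and cystine use, 30.4% in the other transporters and 24% in mTORC1 sensing, against 43.9% of all genes tested.

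**Figure D4:**
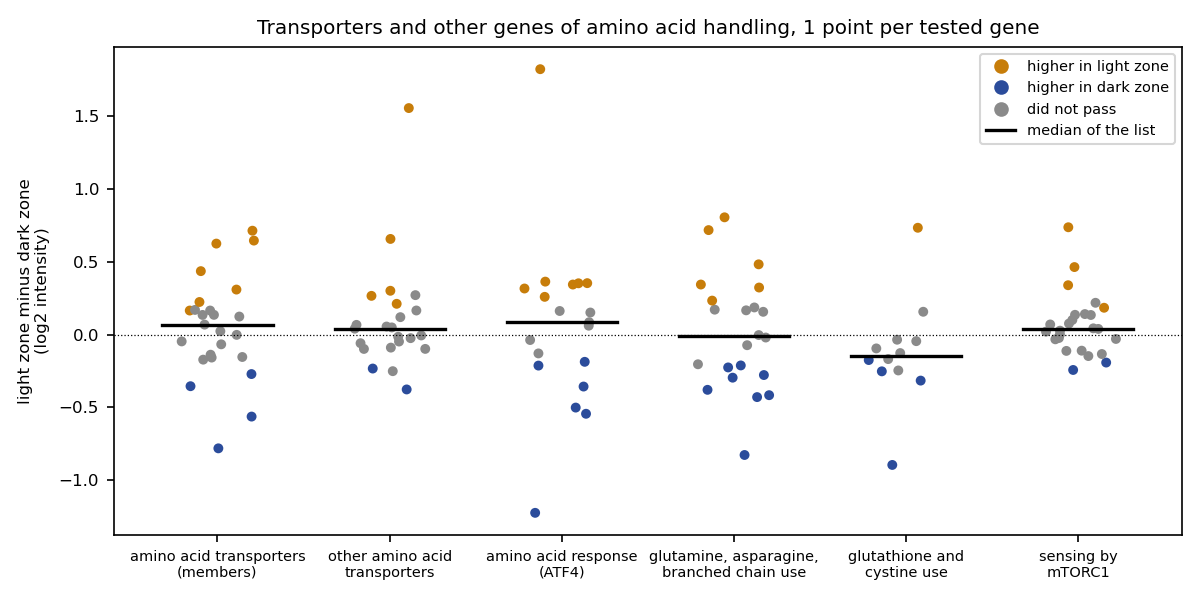
Light zone minus dark zone difference in log2 intensity (y axis), 1 point per tested gene, for the amino acid transporters and 5 other lists of amino acid genes (x axis). Orange points were higher in the light zone, blue ones in the dark zone, grey ones did not pass, and bars mark medians, which lie between -0.15 and 0.08.

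Of the B cell and germinal centre markers, 1 was higher in light zone arrays and 2 in dark zone arrays. Their summed intensity was 22456 to 23155 in light zone arrays and 24049 to 24814 in dark zone arrays. Markers of other cells also differed between zones in part. Of the 5 plasma cell markers above the filter, 2 were higher in light zone arrays and 1 in dark zone arrays. Irf4, also induced in activated B cells, lay at 218 to 262 in light zone arrays and 53.7 to 68.9 in dark zone arrays. Prdm1, which encodes the plasma cell regulator BLIMP1, lay at 37.1 to 51.5 in light zone arrays and 14.6 to 20.5 in dark zone arrays, and neither gene's zones overlapped. All dark zone values of Prdm1 were below the filter of 27.8, so it entered the test by the light zone arrays, where it is high. Jchain was at -0.15, lower in the light zone (limma adjusted p = 0.049), Xbp1 and Sdc1 did not pass, and Tnfrsf17 was below the filter. The summed intensity of all 6 plasma cell markers was 10766 to 12083 in light zone arrays and 11732 to 12276 in dark zone arrays. The summed intensity of 16 myeloid markers was 340.6 to 402 in light zone arrays and 436 to 1173 in dark zone arrays. Without Lyz2 it was 298 to 316 in the light zone and 308 to 349 in the dark zone. Of the 16, 12 were below the filter, among them Cd14, Itgam and C1qa. Lyz2, Csf1r, Cd68 and Adgre1 were above it. Csf1r lay at 34.5 to 44.9 in light zone arrays and 45.1 to 68.7 in dark zone arrays. Cd68 lay at 55.7 to 60.4 in light zone arrays and 39.1 to 53.6 in dark zone arrays. Summed T cell markers were 616 to 668 in the light zone and 732 to 920.4 in the dark zone. Most of this was Cd2, which B cells can also express. Cd3d, Cd3g and Cd8a were below the filter, and Cd3e, Cd4, Icos and Lat were above it. Cd3e lay at 35.9 to 40.7 in light zone arrays and 35.0 to 40.7 in dark zone arrays. Lat, at 81.0 to 97.6 in light zone arrays and 60.6 to 62.8 in dark zone arrays, was higher in the light zone. Summed follicular dendritic and stromal markers were 4427 to 4759 in the light zone and 1709 to 2054 in the dark zone, mostly Cr2 and Fcer2a, which B cells also carry, and Col1a1, Col3a1, Pdpn and Pdgfrb were below the filter. The part of such cells in the transporter differences was not tested.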

How the data were processed

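Gene expression of sorted light zone and dark zone germinal centre B cells was measured on 8 Affymetrix arrays, labelled with a 3' IVT kit per the labels' protocols. The deposited table holds 45037 probe sets. The authors made its intensity values with RMA, per the submitters' processing notes (background correction, quantile normalization and probe summary, version not given in the sources used here), and the values are on a linear scale. A quantile normalization hides changes in total RNA per cell. Differences of genes near the array's floor may be compressed, which was not tested. Log2 was taken with no pseudocount.

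Genes were named through the platform annotation: 34945 probe sets (77.6%) carry 1 symbol, 932 several and 9160 are unnamed here. Symbols were matched to a GRCm38.p6 gene table (34741 matched, 0 changed). The brightest probe set (mean log2 over all arrays) stands for a gene, and genes were tested where it was at or above the 50th percentile of probe set means. Zones were compared with limma 3.58.1 in R 4.3.3 (lmFit, eBayes, two-sided, Benjamini-Hochberg). The labels name no pairing. Same-numbered arrays' deviations from zone means correlated at 0.126, 0.189, 0.0596 and 0.243 for replicates 1 to 4. Those of differently numbered arrays correlated at -0.149 to 0.0909, mostly below the same-numbered ones. The main fit took no pairs because the labels name none, and a fit with the replicate number as a block is given as an alternative. Whether same-numbered arrays share a source was not tested. P-values measure the spread between these arrays. The fit was tested on simulated data. Alternatives varied the filter, probe sets, normalization, variance model, array weights, block, threshold and arrays.

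The genes, lists and markers were chosen with earlier results of these data known. All genes matching the name rule are named. Genes past the threshold with at least 1.5-fold were to be given array by array, and other genes given so were chosen after their values were seen. In each other list, the 3 passing genes with the largest difference and passing genes against the list's larger direction are named, with Myc and Atf4. Genes of these lists named for a call that the replicate block changed, and Sesn2, fall outside that rule. So do the further passing genes named in the amino acid response and in glutamine and branched chain use. Promoters were planned for 2-fold differences, which no transporter reached, and the 1.5-fold limit and Slc7a11 were chosen after the values were seen. A planned comparison of proteins was not run, because no protein table was used here. Python 3.11.15 with matplotlib 3.10.9 was used for the figures.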

Additional observations from a re-analysis of the deposited data

Results flagged for a closer look

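In groups of 4 arrays, an array was singled out when its gap to the nearest other array, as a share of the group's range, exceeded Dixon's critical value. This happened in 3 of 50 groups, and chance gives about 1 in 20. For Slc1a4, light zone replicate 1 was low at 45.3, with the other light zone arrays at 59.6 to 62.8. Without it the difference was 0.06, against -0.05 with all arrays, and neither passed. For Slc36a1, light zone replicate 2 was low at 64.3, with the others at 72.4 to 73.4. For Slc36a4, dark zone replicate 4 was low at 339, with the others at 408 to 418. Without it the difference towards the dark zone was larger (-0.85 against -0.78) and still passed.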

How the results depend on the processing

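Of the amino acid transporters, 5 to 8 were higher in light zone arrays and 4 or 5 in dark zone arrays in every alternative, including those that left out 1 array each. Over all genes, 3205 to 4787 passed. Slc7a5, Slc3a2, Slc7a1, Slc7a6, Slc36a4, Slc43a2, Slc43a3 and Slc38a1 kept their direction and their call in each of these alternatives and in every further probe set above the filter, and so did Slc38a2 except in 1 dimmer probe set (0.0095). With the replicate number as a block, 4787 genes passed against 4629 without it, 6 transporters were higher in light zone arrays and 4 in dark zone arrays, and the call of Slc1a5 was the only one among the transporters to change (limma adjusted p = 0.069). In the other lists the block lost Sfxn3, Ppp1r15b and Flcn and gained Slc25a15, Gss and Rraga. The deviations of each light zone array from its zone mean correlated best with those of the dark zone array of its number. Seen from the dark zone this held except for replicate 3, which correlated better with light zone replicate 1 (0.0909 against 0.0596). Among the lists, an adjusted p under 0.01 left 4 other amino acid transporters and 3 genes of mTORC1 sensing, and averaging probe sets gave 8 genes of glutathione synthesis. Leaving out 1 array gave 3 to 6 genes of mTORC1 sensing, the lowest without light zone replicate 2. Values that changed sign were those of Slc1a5 (-0.045 with averaged probe sets, -0.25 in its second probe set), Slc38a9 (0.017 with averaged probe sets; 0.25, 0.38, 0.044 and 0.055 in other probe sets), Slc38a10 (0.0054 and 0.061 in other probe sets) and Bcat1 (-0.046 with averaged probe sets). For genes near 0 that passed nowhere, Slc1a4 gave 0.015 with averaged probe sets and -0.096 to 0.061 without 1 array each, and Slc36a3 -0.040 to 0.097 without 1 array each. Slc38a7 gave 0.021 with arrays centred on their medians, 0.012 with array weights and -0.056 to 0.078 without 1 array each, and Atf4 gave 0.060 with averaged probe sets and -0.095 to 0.024 without 1 array each. The cause of these changes was not tested. Signals near the array's floor limit what can be said of 17 transporter genes, whose differences may be compressed.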
